A study of Homo sapiens with 10 samples.

Results

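The genes described here are the p53 family member TP73 and genes that p53 is known to switch on or that restrain p53, in MDA-MB-231 cells regrown from xenografts after the Smac mimetic SM-164. They came from a list of 30 genes. Members were the probe sets annotated to 1 listed gene alone, and the brightest of a gene's probe sets, on average over the 10 arrays, stood for it. By that rule 27 of the 30 genes had values, out of 19775 genes in all, and 3 listed genes were not analysed here. All 27 reached log2 5 on at least 2 arrays and were tested among 14929 genes. They had 76 probe sets together.

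MDA-MB-231 is an established human breast cancer line that carries mutant p53. Tumours T2 and T3, labelled resistant to SM-164, and tumours T6 and T8, labelled sensitive to it, were each measured on 2 arrays, as were the cultured parental cells, labelled sensitive. The tumour lines are cells isolated from tumours in SCID mice, immunodeficient animals without mature B and T cells, that were given 5 mg/kg SM-164 by vein, 5 days in each of 2 weeks, and whose tumours had then regrown. SM-164 antagonises the IAP proteins, which restrain caspases and cell death signalling. Each labelling started from 5 ug of total RNA, and the labels do not state whether a line's arrays used RNA of separate cultures. A p-value over arrays thus reflects the scatter of these arrays alone, perhaps technical. No xenograft grown without the drug was measured, so effects of growth in mice, of the drug, of cell isolation and of the 1 parental culture cannot be told apart.

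The p53 protein is a transcription factor that is held at low levels by MDM2 and MDM4 and is stabilised when DNA is damaged or cells are stressed. Its targets halt the cell cycle, repair DNA, adjust metabolism or promote cell death, and many of them also respond to other factors such as p73, FOXO, ATF4 or NF-kB. In cells with mutant p53, targets can still be expressed through these other routes. The p53 protein binds DNA at paired half-sites, so the promoters of the members were searched for the p53 response element consensus.

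RefSeq promoter windows on GRCh38.p14, from 250 bases before to 50 after a transcript start, were found for 23 of the 27 members. A match was a pair of 10-base half-sites on the gene's strand, up to 13 bases apart, each with the C and the G of its core intact. The consensus of both half-sites together reads the same on either strand. Up to 3 mismatches were found in 9 of the 23 members (39.1%), against 15.3% of all 27305 genes with a window. Up to 2 were found in 4 members (17.4%, against 3.62% of genes), and no mismatch in DDB2 (10 of all genes, 0.0366%). Several members had more than 1 window. A match describes letters and not binding, and for members without a match it says only that these letters are not in the window. The 9 elements with up to 3 mismatches are shown, whatever their genes did in the tumours. Capitals mark the half-sites and lower-case letters the spacer.
DDB2: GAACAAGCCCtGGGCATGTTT
MDM2: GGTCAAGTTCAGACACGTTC
AEN: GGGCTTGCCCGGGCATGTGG
TP73: GGGCAAGCTGAGGCCTGCCC
GDF15: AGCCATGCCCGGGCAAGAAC
ZMAT3: GGGCCTGCTCcgccaaGCACATGCGC
GADD45B: GAGCTAGCTGcactcGCCCTTGTCT
SESN1: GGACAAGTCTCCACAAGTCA
PLK2: AGACTTGCTTcccGGCCACGCGC
The MDM2 element lies at chr12:68808923-68808942 on the plus strand, from base -94 to base -75 relative to the start of 1 of its 4 windows. The DDB2 element lies at chr11:47214979-47214999 on the plus strand, from base 6 to base 26 of the transcript. The AEN element lies at chr15:88621306-88621325 on the plus strand, from base -34 to base -15. The GDF15 element lies at chr19:18386186-18386205 on the plus strand, from base 29 to base 48 of the transcript. TP73 has its element at chr1:3690596-3690615 and GADD45B at chr19:2476015-2476039, both on the plus strand. On the minus strand lie those of ZMAT3 (chr3:179071867-179071892), SESN1 (chr6:109009018-109009037) and PLK2 (chr5:58460196-58460218). The 250 bases before the MDM2 and AEN starts, with the element in capitals, show both matches in place.
MDM2 upstream region: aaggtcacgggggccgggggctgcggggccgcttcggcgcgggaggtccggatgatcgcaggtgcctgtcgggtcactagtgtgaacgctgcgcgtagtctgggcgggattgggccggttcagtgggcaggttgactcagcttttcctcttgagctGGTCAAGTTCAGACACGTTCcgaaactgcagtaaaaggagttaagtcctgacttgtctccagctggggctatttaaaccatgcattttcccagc
AEN upstream region: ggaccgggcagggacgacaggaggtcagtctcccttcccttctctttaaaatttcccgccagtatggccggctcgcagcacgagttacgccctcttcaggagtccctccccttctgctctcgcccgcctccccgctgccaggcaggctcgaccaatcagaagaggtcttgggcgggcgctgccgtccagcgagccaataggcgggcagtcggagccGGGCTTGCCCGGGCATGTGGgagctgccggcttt
These regions cover chr12:68808767-68809016 and chr15:88621090-88621339. Of the 9 genes, MDM2, AEN, GDF15, ZMAT3 and GADD45B were higher in the tumours than in parental cells, PLK2 was lower, and DDB2, TP73 and SESN1 were not called, as given in the following paragraphs.

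The arrays of a line correlated over the tested genes at 0.996 to 0.998 and arrays of different lines at 0.972 to 0.995, and no array stood apart. Array medians lay between log2 5.43 and 5.57. Precision is limited by having 2 arrays per line and, for dim probe sets, by background. All 4 genes listed as high in this line were high, with vimentin (VIM) at 14.12 to 14.38. Of the 7 listed as low, PGR and FOXA1 stayed below log2 5 on every array, whereas KRT18 (13.25 to 13.59), EPCAM (8.13 to 9.25) and GATA3 (7.58 to 8.94) did not. Host cells would be mouse cells on a human array. Of the markers of other cells, 2 of 5 macrophage genes, 2 of 7 fibroblast and pericyte genes and 1 of 3 blood genes stayed below log2 5 throughout, the leukocyte gene PTPRC among them at 3.78 to 4.17. Summed on the linear scale, the 5 endothelial genes ran from 247.7 to 290.1 in tumour arrays, against 247.5 to 261 in parental arrays. In the 4 tumours together 3 of the 5 were called higher (25.5% of all genes were). In T8 alone 3 were called higher and 2 lower (28.7% and 15.1% of all genes). CDH5 averaged 5.17 in T8, against 3.59 in parental cells, and TIE1 5.51, against 4.46. The fibroblast genes summed to between 674.2 and 859.5 in tumour arrays, against 807.6 to 832.4 in parental arrays. The blood genes summed to between 172.2 and 246.9 in tumour arrays, against 213.7 to 233.6 in parental arrays. The macrophage genes summed to between 747.2 and 1809 in tumour arrays, against 1773 to 1849 in parental arrays, most of it from LAPTM5. The part of such cells in the results was not tested.

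Setting all 4 tumours against the parental cells asks what the regrown cells share. GDF15, a secreted stress cytokine of the TGF-beta superfamily, was 2.44-fold higher in the tumours, TP53I3, a quinone oxidoreductase tied to oxidative stress, 1.85-fold and TIGAR, a phosphatase that restrains glycolysis, 1.72-fold. The stress sensors GADD45A and GADD45B were higher by log2 0.55 and 0.57. CDKN1A, which encodes the cyclin-dependent kinase inhibitor p21 and is the best known p53 target, went the other way, at log2 -0.30. In all, 15 of 27 members (55.6%) were called at an adjusted p under 0.05, against 42.3% of all tested genes. Of these, 10 were higher (25.5% of all genes were) and 5 lower (16.8% of all genes were). The share of all genes depends on the filter. It was 49.0% with a filter at log2 6 in place of log2 5, and 32.3% with no filter. All 27 members were tested and 15 called under each. The median difference was log2 0.11 over the members and 0.00 over all genes tested. In bulk RNA, fewer cells with a transcript and less of it per cell cannot be told apart. Such differences are tumour minus parental means on the log2 scale, given ± the limma standard error (SE), 8 arrays against 2.

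**Figure D1:**
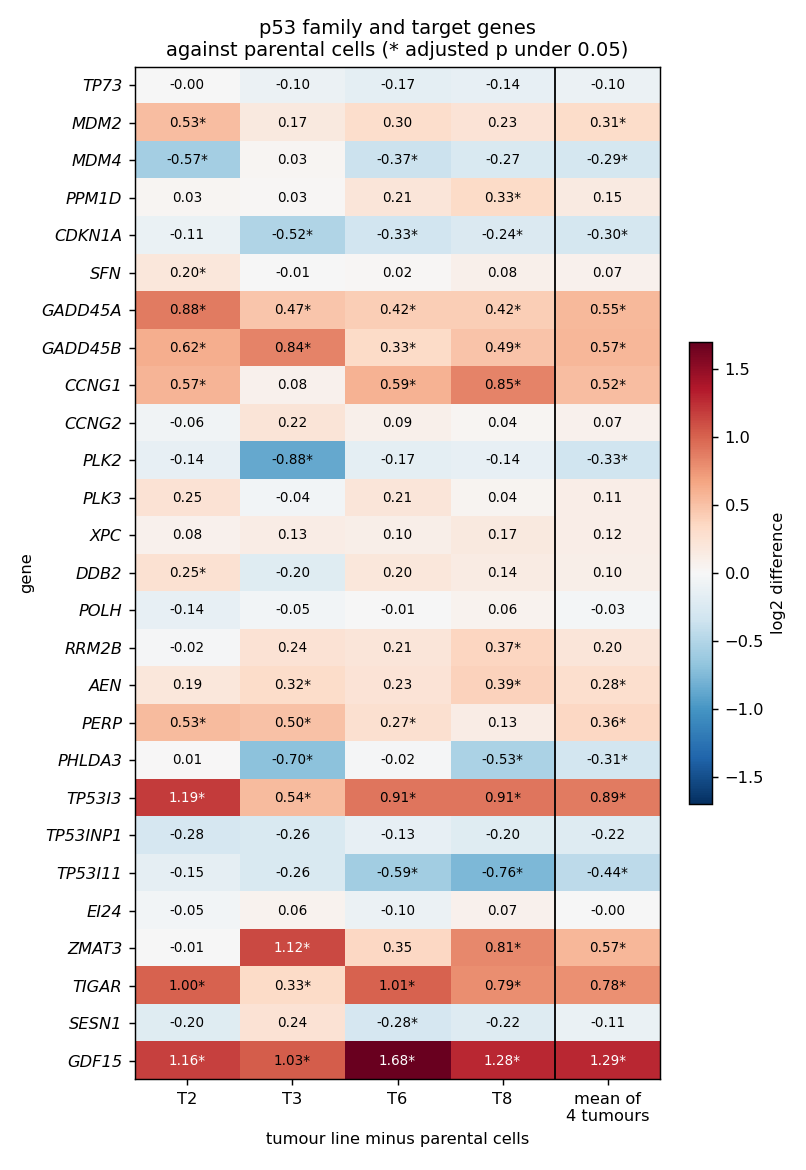
Log2 difference of each tumour line, and of the mean of all 4, from parental cells for the 27 measured members (rows, in order of role); red is higher, blue lower, and an asterisk marks a limma adjusted p under 0.05. GDF15, TP53I3, TIGAR, GADD45A and GADD45B were called higher in all 4 tumours, while 3 lower calls fell on CDKN1A.

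Among p53 family genes and regulators, the changes were small. TP73, a p53 homologue that can activate many of the same targets, read 6.40 and 6.30 in T2, 6.29 and 6.22 in T3, 6.09 and 6.28 in T6 and 6.10 and 6.33 in T8, against 6.34 and 6.36 in parental cells. Its difference of -0.10 ± 0.10 was not called (adjusted p = 0.428), and T2 replicate 1 lay above both parental arrays. MDM2, the ubiquitin ligase that degrades p53 and is itself a p53 target, read 9.10 and 9.34 in T2, 8.72 and 8.99 in T3, 9.05 and 8.93 in T6 and 9.09 and 8.76 in T8, against 8.79 and 8.59 in parental cells. The tumours were higher by 0.31 ± 0.10 (adjusted p = 0.0197), although T3 replicate 1 and T8 replicate 2 lay below parental replicate 1. A second MDM2 probe set was also higher, by 0.52 (means 8.23 in T2, 8.10 in T3, 8.24 in T6 and 8.30 in T8, against 7.70 in parental cells). Of the other 8 MDM2 probe sets, the largest difference was -0.16, and 6 stayed below log2 5 throughout. The mean over all MDM2 probe sets was not called (0.09, adjusted p = 0.304), nor was MDM2 without a variance trend (adjusted p = 0.0517).

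MDM4, the MDM2 relative that blocks the activation domain of p53, read 7.85 and 8.03 in T2, 8.46 and 8.63 in T3, 8.13 and 8.16 in T6 and 8.30 and 8.19 in T8, against 8.71 and 8.32 in parental cells. It was lower in the tumours (difference -0.29, SE 0.09, adjusted p = 0.0211), with T2 lowest and both T3 arrays within the parental range. Its brightest probe set without a suffix s, x or a gave -0.09 (adjusted p = 0.397). PPM1D, a phosphatase that switches off p53 and the damage kinases, read 8.70 and 8.83 in T2, 8.68 and 8.84 in T3, 8.98 and 8.91 in T6 and 9.11 and 9.02 in T8, against 8.78 and 8.69 in parental cells. Its mean difference of 0.15 ± 0.07 was not called (adjusted p = 0.093), and a second, dimmer probe set went the other way (-0.25). Only the T8 contrast was called for PPM1D (0.33 ± 0.09, adjusted p = 0.0066), and it was lost with the mean over probe sets (0.03, adjusted p = 0.736), without T8 replicate 1 (adjusted p = 0.0707) and without parental replicate 2 (adjusted p = 0.0539).

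Cell cycle genes of the list split by direction. CDKN1A read 11.07 and 11.06 in T2, 10.63 and 10.69 in T3, 10.85 and 10.84 in T6 and 10.94 and 10.93 in T8, against 11.18 and 11.18 in parental cells. Every tumour array lay below both parental arrays, and the difference was -0.30 ± 0.05 (adjusted p = 8.21e-05). SFN, which encodes 14-3-3 sigma, a brake on entry into mitosis, read 12.96 and 13.04 in T2, 12.76 and 12.82 in T3, 12.77 and 12.87 in T6 and 12.84 and 12.92 in T8, against 12.76 and 12.84 in parental cells. It was among the brightest members and was not called (0.07 ± 0.05, adjusted p = 0.233), while its dimmer probe sets differed by 0.14 and 0.25. Those differences were called when limma was fitted to all probe sets (adjusted p = 0.0341 and 0.00154). With the mean over its probe sets SFN was called higher (0.15, adjusted p = 0.0171).

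GADD45A, which helps to hold cells before mitosis, read 11.93 and 12.10 in T2, 11.53 and 11.66 in T3, 11.53 and 11.57 in T6 and 11.54 and 11.57 in T8, against 11.21 and 11.05 in parental cells. GADD45B, its relative and also a target of NF-kB, read 10.68 and 10.70 in T2, 10.91 and 10.92 in T3, 10.36 and 10.44 in T6 and 10.53 and 10.60 in T8, against 10.13 and 10.02 in parental cells. Both genes were higher on every tumour array than on either parental array, by 0.55 ± 0.06 (adjusted p = 2.84e-06) and 0.57 ± 0.05 (adjusted p = 5.2e-07). For GADD45B, 2 further probe sets gave 0.66 and 0.70 and a dim one 0.16.

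CCNG1, cyclin G1, which directs a phosphatase to MDM2, read 10.71 and 10.90 in T2, 10.27 and 10.35 in T3, 10.83 and 10.82 in T6 and 11.09 and 11.07 in T8, against 10.34 and 10.13 in parental cells. The higher mean (0.52 ± 0.06, adjusted p = 9.95e-06) came from T2, T6 and T8, and T3 overlapped parental cells. CCNG2, the related cyclin G2 that FOXO factors induce, read 9.33 and 9.58 in T2, 9.68 and 9.80 in T3, 9.64 and 9.58 in T6 and 9.65 and 9.47 in T8, against 9.66 and 9.39 in parental cells and was not called (0.07 ± 0.08, adjusted p = 0.514).

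PLK2, a polo-like kinase of the stress response, read 11.25 and 11.54 in T2, 10.57 and 10.74 in T3, 11.43 and 11.29 in T6 and 11.46 and 11.32 in T8, against 11.66 and 11.40 in parental cells. The lower mean (-0.33 ± 0.08, adjusted p = 0.00446) reflects T3 in the first place, at -0.88, with -0.14 to -0.17 in the other 3 tumours. After repeated quantile normalisation PLK2 was also called lower in T6 (-0.26, adjusted p = 0.0131) and T8 (-0.33, adjusted p = 0.00285). PLK3, its relative, read 7.72 and 7.56 in T2, 7.27 and 7.41 in T3, 7.71 and 7.48 in T6 and 7.46 and 7.40 in T8, against 7.43 and 7.34 in parental cells and was not called (0.11 ± 0.09, adjusted p = 0.306).

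None of the 4 DNA repair and nucleotide supply genes was called in this comparison. XPC, which recognises damage in nucleotide excision repair, read 7.99 and 8.05 in T2, 8.09 and 8.05 in T3, 8.02 and 8.05 in T6 and 8.07 and 8.15 in T8, against 7.98 and 7.90 in parental cells. DDB2, which recognises ultraviolet damage, read 8.17 and 8.27 in T2, 7.70 and 7.83 in T3, 8.08 and 8.25 in T6 and 8.12 and 8.11 in T8, against 7.97 and 7.96 in parental cells. POLH, a polymerase that copies past lesions, read 8.31 and 8.11 in T2, 8.19 and 8.41 in T3, 8.30 and 8.39 in T6 and 8.36 and 8.46 in T8, against 8.33 and 8.37 in parental cells. Their differences were 0.12 ± 0.07, 0.10 ± 0.07 and -0.03 ± 0.08, with adjusted p = 0.18, 0.301 and 0.759. XPC was nevertheless higher on all 8 tumour arrays than on either parental array. RRM2B, the p53-inducible subunit of ribonucleotide reductase, read 8.05 and 8.38 in T2, 8.36 and 8.59 in T3, 8.49 and 8.39 in T6 and 8.67 and 8.53 in T8, against 8.37 and 8.10 in parental cells, a difference of 0.20 ± 0.10 (adjusted p = 0.112). For RRM2B the T8 contrast alone was called (0.37 ± 0.12, adjusted p = 0.0249). It was not called without parental replicate 2 (0.23, adjusted p = 0.217) or T8 replicate 1 (0.30, adjusted p = 0.165), after repeated quantile normalisation (0.23, adjusted p = 0.0742) or without a variance trend (adjusted p = 0.0522).

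Genes tied to cell death moved both ways. PERP, a membrane protein of desmosomes and an effector of p53-dependent death, read 11.25 and 11.51 in T2, 11.28 and 11.42 in T3, 11.14 and 11.10 in T6 and 11.01 and 10.94 in T8, against 10.90 and 10.80 in parental cells. AEN, a nuclease active in apoptosis, read 8.89 and 8.93 in T2, 8.96 and 9.11 in T3, 8.98 and 8.91 in T6 and 9.10 and 9.12 in T8, against 8.60 and 8.83 in parental cells. All 8 tumour arrays were higher than both parental arrays for each of these genes, by 0.36 ± 0.06 for PERP (adjusted p = 0.000385) and 0.28 ± 0.07 for AEN (adjusted p = 0.00475). A second bright PERP probe set gave 0.55, and the lowest-signal ones gave -0.03 to 0.18.

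PHLDA3, an inhibitor of the survival kinase AKT, read 8.29 and 8.28 in T2, 7.53 and 7.61 in T3, 8.25 and 8.25 in T6 and 7.72 and 7.75 in T8, against 8.38 and 8.16 in parental cells. It was lower in the tumours (difference -0.31, SE 0.07, adjusted p = 0.00319), with T3 and T8 low and T2 and T6 within 0.02 of parental cells. A second, dimmer probe set gave -0.60, with all 4 tumours below parental cells. TP53I3 read 9.18 and 9.29 in T2, 8.52 and 8.64 in T3, 8.90 and 9.01 in T6 and 8.91 and 9.01 in T8, against 7.95 and 8.14 in parental cells. Every tumour array was higher than both parental arrays, by 0.89 ± 0.07 on average (adjusted p = 1.71e-07).

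TP53I11, a p53-inducible gene, read 6.90 and 6.25 in T2, 6.59 and 6.35 in T3, 6.16 and 6.12 in T6 and 5.94 and 5.99 in T8, against 6.60 and 6.86 in parental cells. It was lower in the tumours (difference -0.44, SE 0.14, adjusted p = 0.0178), and its other 2 probe sets gave -0.53 and -0.42. TP53INP1, a stress protein that takes part in autophagy, read 7.0 and 7.30 in T2, 7.13 and 7.20 in T3, 7.34 and 7.25 in T6 and 7.28 and 7.16 in T8, against 7.46 and 7.40 in parental cells. It lay lower on all 8 tumour arrays but was not called (-0.22 ± 0.09, adjusted p = 0.0624). EI24, a protein of the endoplasmic reticulum needed for autophagy, read 11.41 and 11.55 in T2, 11.53 and 11.65 in T3, 11.44 and 11.42 in T6 and 11.58 and 11.62 in T8, against 11.57 and 11.49 in parental cells and was not called (0.00 ± 0.05, adjusted p = 0.952).

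Of the members of metabolism, RNA control and secretion, GDF15, TIGAR and ZMAT3 were higher and SESN1 was not called. GDF15 read 8.87 and 9.02 in T2, 8.73 and 8.90 in T3, 9.43 and 9.48 in T6 and 9.04 and 9.09 in T8, against 7.87 and 7.69 in parental cells. The tumour and parental arrays were more than log2 0.8 apart, and the mean difference was 1.29 ± 0.07 (adjusted p = 3.28e-09). That value came from a probe set with a suffix that marks possible cross-hybridisation, and the other 2 GDF15 probe sets stayed below log2 5 (-0.32 and -0.02). TIGAR read 9.29 and 9.52 in T2, 8.72 and 8.75 in T3, 9.44 and 9.39 in T6 and 9.16 and 9.24 in T8, against 8.51 and 8.30 in parental cells, with every tumour array higher (0.78 ± 0.07, adjusted p = 7.4e-07). SESN1, a sestrin that restrains mTORC1, read 7.07 and 7.07 in T2, 7.61 and 7.42 in T3, 6.99 and 7.0 in T6 and 7.08 and 7.03 in T8, against 7.24 and 7.30 in parental cells and was not called (-0.11 ± 0.08, adjusted p = 0.274).

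ZMAT3, an RNA-binding zinc finger protein, read 7.67 and 8.21 in T2, 9.01 and 9.11 in T3, 8.33 and 8.26 in T6 and 8.83 and 8.69 in T8, against 7.93 and 7.96 in parental cells. The difference of 0.57 ± 0.10 (adjusted p = 0.000476) was largest in T3 and T8. T6 stood at 0.35 ± 0.13 and was not called (adjusted p = 0.0535). It was called with the mean over probe sets (0.43, adjusted p = 0.00416) and after median centring (0.42, adjusted p = 0.0431). T2 stood at the parental level on this probe set, but above it on the others (on the second brightest 7.803, against 7.655). All 5 ZMAT3 probe sets gave the same direction, from 0.57 to 0.67, and each had T3 or T8 as its highest line. PHLDA3 had the converse order over the tumours on both of its probe sets, with T3 and T8 below T2 and T6.

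**Figure D2:**
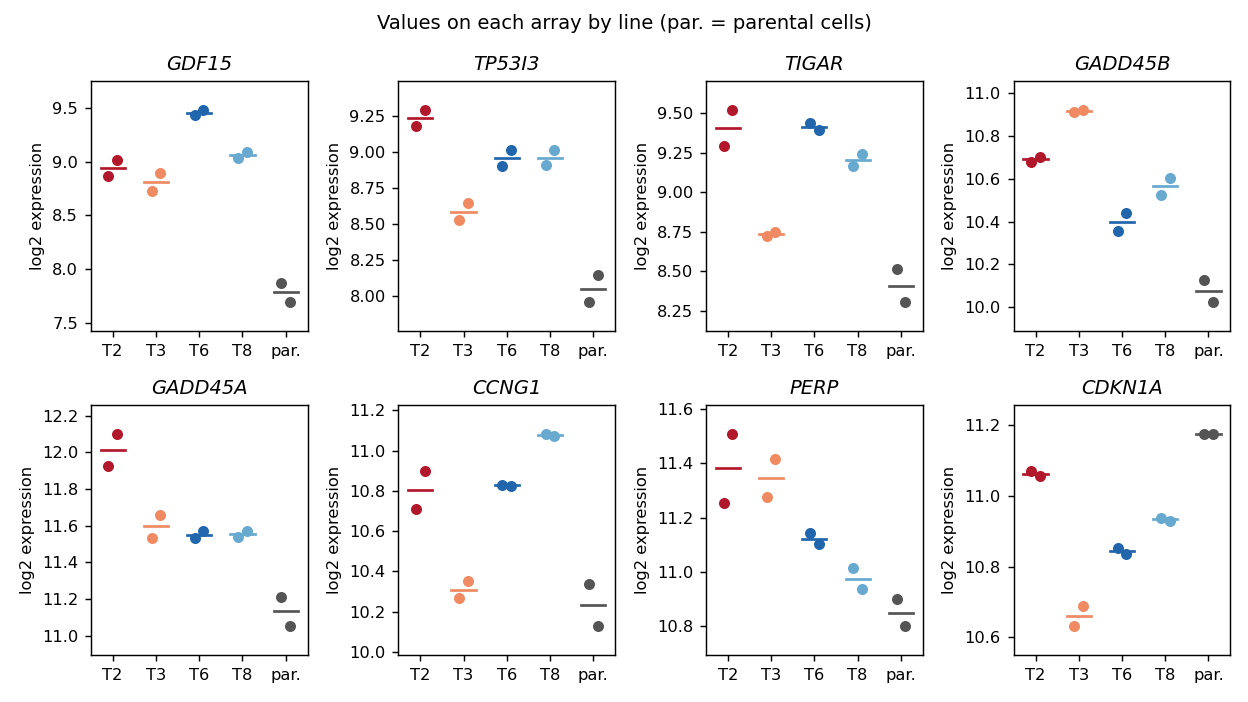
Log2 expression on each array (points) and line means (bars) for 8 members, with 2 arrays per line; each panel has its own axis, which does not start at 0. For GDF15, TP53I3, TIGAR, GADD45B, GADD45A and PERP all 8 tumour arrays lie above both parental arrays, for CDKN1A all 8 lie below, and for CCNG1 tumour T3 overlaps parental cells.

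Over all members, 8 had every tumour array above both parental arrays (15.7% of all tested genes did) and 2 had every tumour array below them (12.4% of all genes did). The 8 were GDF15, TP53I3, TIGAR, GADD45A, GADD45B, PERP, AEN and XPC, and the 2 were CDKN1A and TP53INP1. The calls rest on the spread between arrays. With each tumour line as 1 replicate against the single parental line, limma called 0 of the 27 members (5 at an unadjusted p under 0.05) and 195 of all genes (1.31%), and GDF15 had an adjusted p of 0.0756. MDM4, PLK2, AEN and PHLDA3 were not called without parental replicate 1 (-0.10, -0.20, 0.17 and -0.20), nor MDM2 and TP53I11 without parental replicate 2 (0.21 and -0.32). With probe sets that carry no suffix s, x or a, 19 members were tested and 6 called (31.6%), against 39.1% of all genes tested. Of the 6, 3 were higher and 3 lower. MDM2, CDKN1A, GDF15, TP53I3, CCNG1 and AEN, all called above, were not among the 19. MDM4, GADD45B and PERP were tested and not called. The members' share was then below that of all genes, but over a smaller set of members.

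Each tumour was also set against the same 2 parental arrays, so these 4 comparisons are not independent. In T2, 11 of 27 members were called (33% of all genes were), 10 higher and 1 lower (17.5% and 15.5% of all genes). In T3, 11 were called (37.9% of all genes), 8 higher and 3 lower (22.1% and 15.8%). In T6, 11 were called (34.5% of all genes), 7 higher and 4 lower (20.7% and 13.7%). In T8, 13 were called (43.8% of all genes), 10 higher and 3 lower (28.7% and 15.1%). With the filter at log2 6 the member counts were the same. The shares of all genes were then 39.3% in T2, 45.2% in T3, 40.4% in T6 and 50.5% in T8. With no filter, 10, 11, 10 and 13 members were called in that order, against 24.5%, 28.2%, 25.8% and 33.4% of all genes. The share of member calls that were higher was 90.9% in T2 (76.9% after repeated quantile normalisation), 72.7% in T3 (61.5%), 63.6% in T6 (80.0% after median centring) and 76.9% in T8 (52.9% after quantile normalisation). GDF15, TP53I3, GADD45A, GADD45B and TIGAR were called higher in all 4 tumours, 5 of 27 members beside 8.87% of all genes. TIGAR in T3 was lost without T3 replicate 2 (0.31, adjusted p = 0.0628) and without parental replicate 2 (0.22, adjusted p = 0.139). GADD45B was lost in all 4 tumours with its probe set that has no suffix (0.08 to 0.30, adjusted p between 0.0732 and 0.664). No member was called lower in all 4 (5.41% of all genes were), and none was called higher in one tumour and lower in another (4.16% of all genes were). CDKN1A was lower in T3, T6 and T8 (-0.52, -0.33 and -0.24) and stood at -0.11 ± 0.06 in T2, where it was not called (adjusted p = 0.155). This depended on the scaling. After repeated quantile normalisation CDKN1A was called lower in T2 too (-0.175, adjusted p = 0.0173). After median centring it was not called in T8 (-0.145, adjusted p = 0.212).

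GDF15 differed by 1.16 in T2, 1.03 in T3, 1.68 in T6 and 1.28 in T8. TP53I3 differed by 1.19 in T2, 0.54 in T3, 0.91 in T6 and 0.91 in T8. TIGAR differed by 1.0 in T2, 0.33 in T3, 1.01 in T6 and 0.79 in T8. The sensitive tumour T6 thus had the highest GDF15, whereas TP53I3 was highest in the resistant tumour T2 and TIGAR was about equal in T2 and T6. Among members called in 1 tumour alone, DDB2 (0.25 ± 0.09) and SFN (0.20 ± 0.06) were higher in T2, and SESN1 (-0.28 ± 0.10) was lower in T6. With the mean over its probe sets SFN was also called higher in T8 (0.17, adjusted p = 0.0306). SFN in T2 was not called after median centring, without a variance trend, without T2 replicate 2 or without parental replicate 1 (adjusted p between 0.0591 and 0.117). MDM2 was higher in T2 (0.53 ± 0.12, but 0.14 and not called with the mean over its probe sets, adjusted p = 0.254) and PLK2 lower in T3 (-0.88 ± 0.10). After repeated quantile normalisation PLK2 was called lower in T6 and T8 as well. The T6 count of 11 fell to 7 without either T6 array, where MDM4, SESN1, TP53I11 and PERP were not called, and DDB2 in T2 (adjusted p = 0.049) was not called without any 1 array of T2, T6, T8 or parental cells (adjusted p between 0.0535 and 0.219).

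Differences among the 4 tumours, tested without reference to parental cells by a moderated F test, were called for 17 of 27 members (63.0%), against 41.7% of all tested genes. The share of all genes was 50.1% with the filter at log2 6 and 31.0% with no filter, with 17 members called under each. The widest ranges of tumour means were 1.12 for ZMAT3, 0.77 for CCNG1, 0.74 for PLK2, 0.72 for PHLDA3, 0.68 for TIGAR and 0.65 for TP53I3 on the log2 scale. Their adjusted p-values were at most 0.000385. The median range was 0.41 over the members and 0.30 over all genes tested.

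T3, a resistant tumour, stood lowest most often. It had the lowest mean of the 4 tumours for 12 of 27 members (29% of all genes) and for 10 of the 17 that differed (36.3% of all genes that differed). T2, the other resistant tumour, had the highest mean for 12 of 27 members (29.3% of all genes). Contrasts between pairs of tumours were added after these values were seen. T3 against T2 gave 14 of 27 members (30.8% of all genes), 4 higher (16.9%) and 10 lower (13.9%). T3 against T6 gave 12 (25%), 4 higher (11.3%) and 8 lower (13.7%), and T3 against T8 gave 10 (18.4%), 3 higher (4.66%) and 7 lower (13.8%). The contrasts without T3 gave fewer members. T2 against T8 gave 9 (31.8%), 5 higher (9.66%) and 4 lower (22.1%), T2 against T6 gave 4 (9.46%), 3 higher (3.08%) and 1 lower (6.38%), and T8 against T6 gave 4 (15.1%), 2 higher (10.4%) and 2 lower (4.66%). Against each of T2, T6 and T8, T3 was called lower for 6 members, beside 5.85% of all genes, and higher for 2, beside 2.93% of all genes. The 6 were CDKN1A, TP53I3, DDB2, PLK2, CCNG1 and TIGAR, and the 2 were SESN1 and GADD45B.

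In T3, CDKN1A differed by -0.40 ± 0.06 against T2, -0.19 ± 0.06 against T6 and -0.27 ± 0.06 against T8. TP53I3 differed by -0.65 ± 0.09 against T2, -0.37 ± 0.09 against T6 and -0.38 ± 0.09 against T8. In T3, CDKN1A lay below parental cells and TP53I3 above them. PLK2 differed by -0.74 ± 0.10 against T2, -0.70 ± 0.10 against T6 and -0.73 ± 0.10 against T8. CCNG1 differed by -0.50 ± 0.08 against T2, -0.52 ± 0.08 against T6 and -0.77 ± 0.08 against T8. For PLK2 the other 3 tumours lay within 0.04 of each other, whereas CCNG1 was also higher in T8 than in each of T2, T3 and T6.

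TIGAR differed by -0.67 ± 0.09 against T2, -0.68 ± 0.09 against T6 and -0.47 ± 0.09 against T8. DDB2 differed by -0.45 ± 0.09 against T2, -0.40 ± 0.09 against T6 and -0.35 ± 0.09 against T8. The adjusted p-values of these 6 genes were at most 0.0279. In the other direction, SESN1 differed by 0.44 ± 0.10 against T2, 0.52 ± 0.10 against T6 and 0.46 ± 0.10 against T8, and GADD45B by 0.23 ± 0.07 against T2, 0.52 ± 0.07 against T6 and 0.35 ± 0.07 against T8 (adjusted p at most 0.0156). ZMAT3 was higher in T3 than in T2 (1.12 ± 0.13) and T6 (0.77 ± 0.13), and its difference of 0.30 ± 0.13 from T8 was not called (adjusted p = 0.131). PHLDA3 was lower in T3 than in T2 (-0.72 ± 0.09) and T6 (-0.68 ± 0.09), and the difference from T8 (-0.17 ± 0.09) was not called (adjusted p = 0.237). Leaving out T3 replicate 1, T6 replicate 2 or T8 replicate 2 lowered the 6 members to 3, and without T3 replicate 1 the 2 higher ones fell to 0, or to 1 without T3 replicate 2 or T8 replicate 2.

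**Figure D3:**
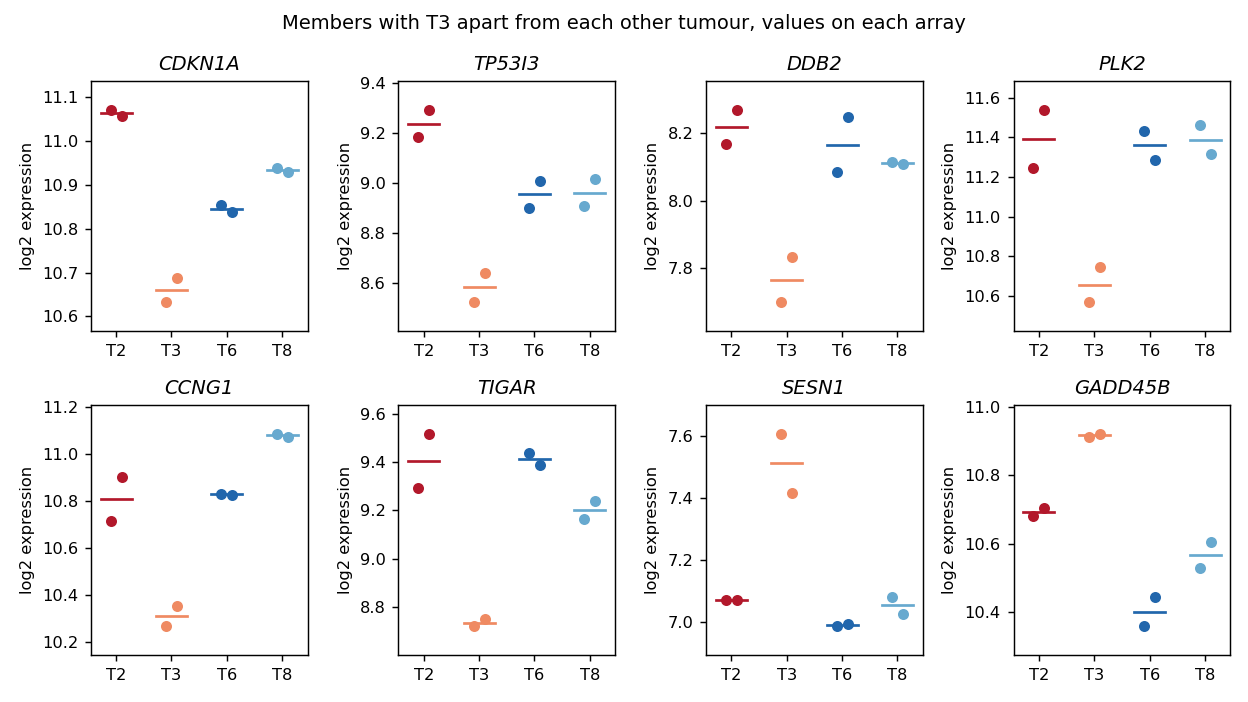
Log2 expression on each tumour array (points) and tumour means (bars) for the 8 members in which T3 differed from each other tumour; each panel has its own axis, which does not start at 0. Both T3 arrays lie below the other 6 tumour arrays for CDKN1A, TP53I3, DDB2, PLK2, CCNG1 and TIGAR and above them for SESN1 and GADD45B.

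**Figure D4:**
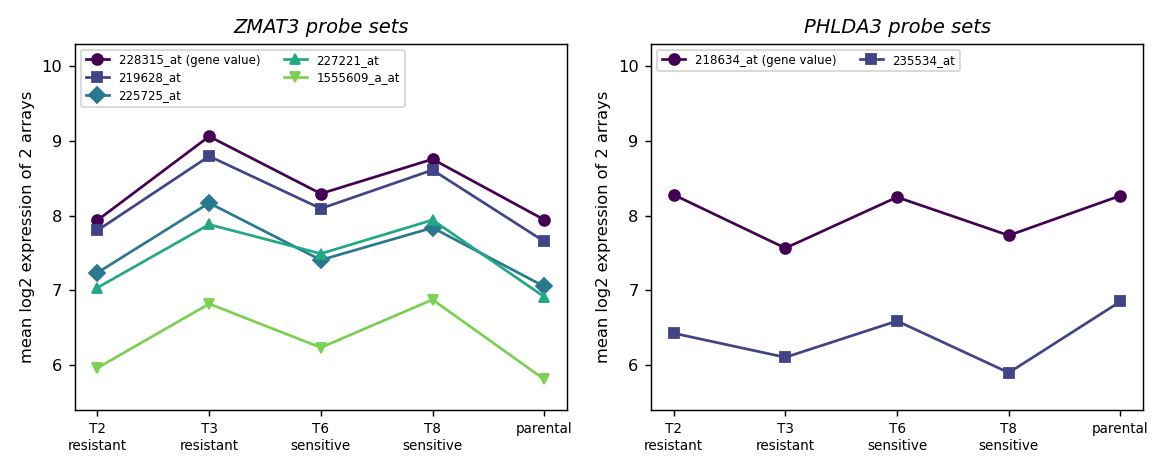
Mean log2 expression of 2 arrays per line for the 5 ZMAT3 and 2 PHLDA3 probe sets, with lines joining the values of 1 probe set and levels of different probe sets not comparable. All ZMAT3 probe sets are higher in T3 and T8 than in T2, T6 and parental cells, and both PHLDA3 probe sets are lower in T3 and T8.

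Other tumours stood apart for fewer members. GADD45A was higher in T2 than in each other tumour (1.76% of all genes were), by 0.46 ± 0.07 over T6, 0.46 ± 0.07 over T8 and, as T3 minus T2, -0.42 ± 0.07. GDF15 was higher in T6 than in each other tumour (0.429% of all genes were), with T2 minus T6 at -0.51 ± 0.09, T3 minus T6 at -0.65 ± 0.09 and T8 minus T6 at -0.39 ± 0.09. CCNG1 was the 1 member higher in T8 than in each other tumour (2.74% of all genes were). No member was lower in T2, T6 or T8 than in each other tumour (4.37%, 0.174% and 0.301% of all genes were).

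Setting resistant against sensitive tumours asks whether these genes follow the labelled response to SM-164. With the tumour as replicate, T2 and T3 against T6 and T8, limma called 0 of 27 members and 0 of all genes (0%), with 2 members and 661 genes at an unadjusted p under 0.05. Those 2 were TP53I11 (0.47 ± 0.11) and PERP (0.31 ± 0.11), both with an adjusted p of 0.894. The median difference of the members was -0.03, against -0.02 over all genes, and the lack of calls with 2 tumours in each class does not show equal expression.

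Over the arrays of these 4 tumours, 10 of 27 members were called (19% of all genes were), 5 higher (4.76% of all genes were) and 5 lower (14.2% of all genes were) in the resistant pair. Among them, 3 had every resistant array above every sensitive one (3.97% of all genes did) and 2 had every resistant array below (6.44% of all genes did). With the filter at log2 6, 10 members were called, against 23.3% of all genes, and with no filter 10, against 13.7%. TP53I11 averaged 6.57 (T2) and 6.47 (T3) in resistant tumours, against 6.14 (T6) and 5.96 (T8) in sensitive ones (0.47 ± 0.12, 4 arrays against 4, adjusted p = 0.0171). Its other probe sets gave -0.18 and 0.09, and the mean over its probe sets was not called (0.13, adjusted p = 0.252). PERP averaged 11.38 (T2) and 11.35 (T3) in resistant tumours, against 11.12 (T6) and 10.98 (T8) in sensitive ones (0.31 ± 0.06, adjusted p = 0.00197). GADD45B averaged 10.69 (T2) and 10.92 (T3) in resistant tumours, against 10.40 (T6) and 10.57 (T8) in sensitive ones (0.32 ± 0.05, adjusted p = 0.000354). With the mean over probe sets PERP was not called (0.11, adjusted p = 0.113), nor was GADD45B on its probe set without a suffix (0.17, adjusted p = 0.199).

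Lower in both resistant tumours was GDF15, at 8.95 (T2) and 8.81 (T3) in resistant tumours, against 9.46 (T6) and 9.07 (T8) in sensitive ones (-0.38 ± 0.07, adjusted p = 0.00121), and was not called with the mean over its probe sets (-0.09, adjusted p = 0.299). PPM1D averaged 8.77 (T2) and 8.76 (T3) in resistant tumours, against 8.94 (T6) and 9.06 (T8) in sensitive ones (-0.24 ± 0.06, adjusted p = 0.0141). The arrays of both classes overlapped for the other 5 calls. CCNG1 (-0.40 ± 0.06) was lower, with T3 low and T8 high. PLK2 (-0.35 ± 0.07) and TIGAR (-0.24 ± 0.07) were lower and SESN1 (0.27 ± 0.07) higher, with T3 farthest from the other tumours, and GADD45A (0.25 ± 0.05) was higher, with T2 farthest. CDKN1A stood at -0.03 ± 0.04 and was not called (adjusted p = 0.659). Without T3 replicate 1, and likewise without T6 replicate 1, 6 members were called, and TP53I11, TIGAR, SESN1 and PPM1D were lost. Where median centring was added to the deposited scaling, 3 members were higher and 5 lower. Beside these results, the 3 blood genes summed to between 198.6 and 246.9 in resistant arrays, against 172.2 to 188.3 in sensitive arrays, and the macrophage genes to between 747.2 and 1346, against 1315 to 1809. The part of such cells was not tested.

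**Figure D5:**
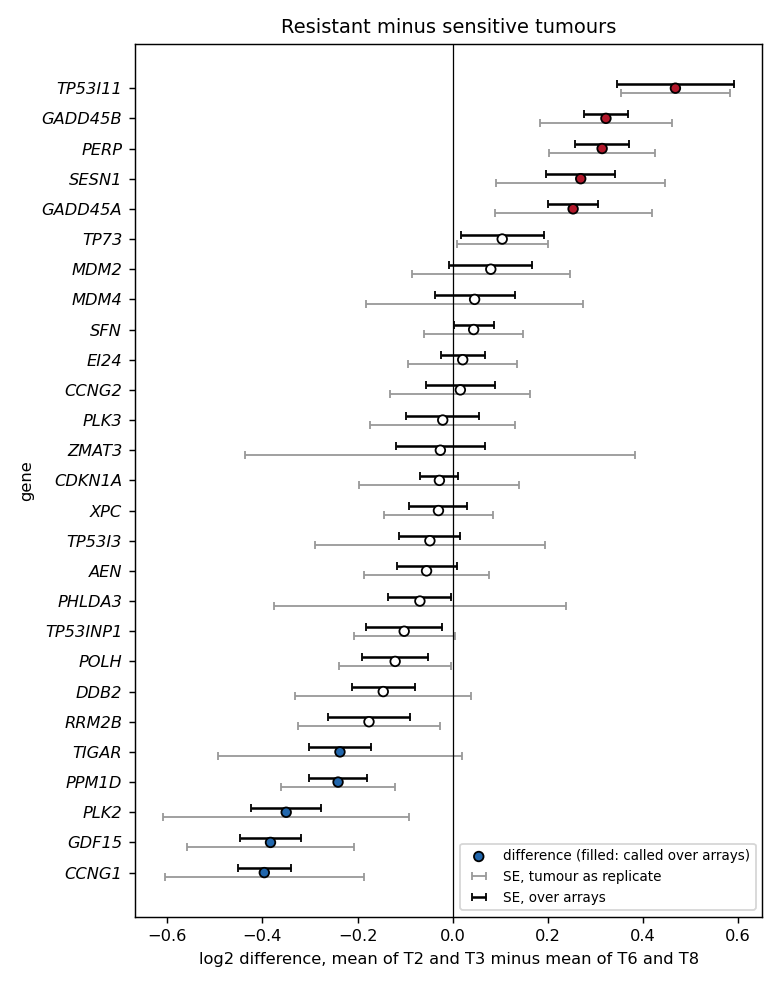
Log2 difference of resistant (T2 and T3) minus sensitive (T6 and T8) tumours for the 27 members, with the SE over arrays in black and with the tumour as replicate in grey; filled points were called over arrays, red higher and blue lower. TP53I11 (0.47), GADD45B (0.32) and PERP (0.31) lead upward and CCNG1 (-0.40) and GDF15 (-0.38) downward, and with the tumour as replicate no difference was called.

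Further genes of the p53 pathway were taken from 3 lists. Of 33 other p53 targets, 28 were tested, 2 more had values below the filter and 3 were not analysed here. In the tumours against parental cells 8 of the 28 were higher (25.5% of all genes were) and 7 lower (16.8% of all genes were), with a median of 0.04. DRAM1, a lysosomal membrane protein that promotes autophagy, was higher by 1.73 ± 0.07 (adjusted p = 4.18e-11), with means of 10.29 in T2, 9.95 in T3, 10.15 in T6 and 10.08 in T8, against 8.39 in parental cells. APAF1, the scaffold of the apoptosome, and FAS, the death receptor, were higher by 0.66 ± 0.09 and 0.46 ± 0.08. FAS averaged 8.21 in T3, against 6.87 in parental cells, and between 6.79 and 7.22 in the other tumours.

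Lower among these targets were KITLG, the ligand of the receptor KIT (-1.15 ± 0.08), CD82, a tetraspanin known as a metastasis suppressor (-0.91 ± 0.06), and FUCA1, a lysosomal fucosidase (-0.66 ± 0.07). The adjusted p-values of APAF1, FAS and these 3 genes were at most 0.000456. Between resistant and sensitive tumours 4 of the 28 were higher (4.76% of all genes) and 5 lower (14.2%) over arrays, and 0 were called with the tumour as replicate (0% of all genes).

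Of 18 p53 regulators and partners, 3 were higher (25.5% of all genes were) and 3 lower (16.8%) in the tumours than in parental cells. Their median difference was 0.06. PPP1R13L, which encodes the p53 inhibitor iASPP (0.39 ± 0.06), TP53BP2, which encodes the activator ASPP2 (0.26 ± 0.08), and DAXX (0.20 ± 0.05) were higher. HIPK2, a kinase that phosphorylates p53, was lower (-0.79 ± 0.06, adjusted p = 3.42e-08), at 10.02 in T2, 10.71 in T3, 10.03 in T6 and 10.23 in T8, against 11.04 in parental cells. CHEK2, a damage checkpoint kinase (-0.22 ± 0.07), and KAT5, an acetyltransferase of p53 and histones (-0.19 ± 0.06), were lower by less.

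Cell cycle genes that p53 is known to repress through p21 and the DREAM complex were higher in 8 of 18 and lower in 3 (median 0.09). CENPA, the centromeric histone, was higher by 0.46 ± 0.05, AURKA, a mitotic kinase, by 0.28 ± 0.05 and CDK1, the kinase of mitotic entry, by 0.26 ± 0.07. MKI67, the proliferation antigen (-0.28 ± 0.06), E2F1 (-0.27 ± 0.06) and CCNA2, cyclin A2 (-0.18 ± 0.05), were lower. Over all tested genes 25.5% were higher and 16.8% lower.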

How the data were processed

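Total RNA of 5 lines was measured on 10 Affymetrix arrays, 2 per line. The deposited table holds log2 expression values that the authors made with affy, RMA and limma, per the submitters' processing notes; versions and settings are not given in the sources used here. RMA corrects background, equalises the distributions of the arrays by quantiles and combines a set's probes by median polish, which compresses differences near background. All 54675 probe sets of the table were read.

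Control probe sets (62) were dropped. Exactly 1 gene symbol was annotated to 41091 of the rest, more than 1 to 1801 and none to 11721. Of the 41091, 41037 were matched by Entrez number to the RefSeq table of GRCh38.p14, whose symbol was then used. The brightest probe set stood for each of 19775 genes, and 14929 reaching log2 5 on at least 2 arrays were tested. Groups came from the sample titles. limma 3.58.1 under R 4.3.3 (lmFit, eBayes with a trend, Benjamini-Hochberg over all tested genes) fitted 1 coefficient per line, with 5 residual degrees of freedom, or line means for the response, with 2. A gene was called at an adjusted p under 0.05.

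Every member may be named; of the other lists, the 3 called genes with the largest change per direction are named. The members and lists were chosen with earlier results of these data known. The scripts were tested on simulated data. Alternatives covered the filter, the choice of probe set, the scaling, the variance prior, a replicate block, single arrays left out and the unit of replication.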

Additional observations from a re-analysis of the deposited data

Results flagged for a closer look

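For 17 members the change from parental cells differed among the 4 tumours by the F test over arrays, and the values in parentheses are its adjusted p-values. T3 was the lowest tumour for CDKN1A (0.000363), TP53I3 (0.000385), DDB2 (0.00408), PLK2 (7.95e-05), CCNG1 (1.83e-05) and TIGAR (8.61e-05), each lower there than in every other tumour. T3 also had the lowest mean for GDF15 (0.000294), PHLDA3 (2.66e-05), SFN (0.0372) and PPM1D (0.0232). For each of these its difference from at least 1 other tumour was not called. T3 minus T2 was only -0.007 ± 0.09 for PPM1D. T3 was the highest tumour for MDM4 (0.00559), SESN1 (0.00245), ZMAT3 (3.8e-05) and GADD45B (0.000116). T2 was the highest for GADD45A (0.000274), PERP (0.00239) and TP53I11 (0.0309). The calls of 3 of these genes were lost under many alternatives. For TP53I11 this held without a variance trend (0.069), with the replicate block (0.0604) and without T3 replicate 1 or any T6 or T8 array (0.0568 to 0.101). For SFN it held after centring (0.286), without a variance trend (0.17), when all genes were limited to probe sets without a suffix s, x or a (0.0591, with its own probe set unchanged) and without any 1 of T2 replicate 2, T3 replicate 1, T6 replicate 1 or either T8 array (0.0552 to 0.169). For PPM1D it held with the mean over probe sets (0.0661) and without T3 replicate 1, T6 replicate 1 or either T8 array (0.0512 to 0.139). PERP (0.0982) and GDF15 (0.0733) were lost with the mean over probe sets, GADD45B on its probe set without a suffix (0.369), and DDB2 and SESN1 without T3 replicate 1 (0.0617 and 0.0534). At a group size of 2 arrays per line no single array could be tested as an outlier.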

How the results depend on the processing

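With the same 2 parental arrays in every tumour comparison, leaving out each array in turn gave 12 to 16 members for the 4 tumours against parental cells, 9 to 11 for T2, 10 to 12 for T3, 7 to 12 for T6 and 11 to 14 for T8. The same gave 12 to 19 members for differences among the tumours, 6 to 11 for resistant against sensitive tumours over arrays, 3 to 6 lower and 0 to 3 higher in T3 than in each other tumour, and 0 with the tumour as replicate. Over all genes these ranges were 4099 to 6877, 3905 to 4974, 4084 to 6015, 3255 to 5585, 4361 to 6915, 4933 to 6645, 1389 to 3535 and 0 to 0, in the order tumours together, T2, T3, T6, T8, among tumours, response over arrays and response with the tumour as replicate. Probe sets without a suffix s, x or a left 19 members tested. They gave 6 members for the tumours together (31.6%, against 39.1% of all genes), 5 for T2 (26.3%, against 30.3%) and 5 for T3 (26.3%, against 34.7%). For T6 they gave 3 (15.8%, against 30.9%), for T8 8 (42.1%, against 40.4%) and among the tumours 11 (57.9%, against 37.3%). T3 was lower than each other tumour for 3 members and higher for 0. The counts fell partly because fewer members were tested. There MDM4 in T6 turned to 0.023 (adjusted p = 0.884), and GADD45B (0.16, adjusted p = 0.211) and PERP (0.18, adjusted p = 0.211) were not called in the tumours together. Repeated quantile normalisation gave 4 members higher in T3 than in each other tumour and median centring 1, and the cause was not tested. Line means gave 0 members and 195 genes for the tumours against parental cells, and a random block for line (consensus correlation 0.508) 4 genes and 0 members for the response, each with fewer independent units. The share of calls that were higher moved with the scaling. Over all genes it was 60.2% for the tumours together (48.3% with repeated quantiles, 71.9% with centring) and 25.1% for the response over arrays (47.8% and 16.2%). Over members it was 90.9% in T2 (76.9% with quantiles), 72.7% in T3 (61.5%), 63.6% in T6 (80.0% with centring), 76.9% in T8 (52.9% with quantiles) and 50% for the response (37.5% with centring). Differences between replicate 1 and its partner array did not run the same way in all lines, and 4 of 10 pairs of lines had a correlation of these replicate deviations over 0.1. The correlation was 0.50 between T2 and T3 and 0.15 to 0.31 among T6, T8 and parental cells. Between these sets it was negative (-0.39 to -0.14). The replicate block gives replicate 1 the same sign in every line, so it does not follow this pattern. What lies behind the pattern was not tested. With the replicate block, 15 members were called for the tumours together (40.5% of all genes were), 11 for T2 (31.8%) and 11 for T3 (36.7%). It gave 9 for T6 (32.4% of all genes), 13 for T8 (41.4%), 16 among the tumours (38.9%) and 10 for the response over arrays (16.7%). The values of members called in at least 1 comparison were followed over all comparisons and alternatives. Of these values, 4640 kept their side of the threshold, 244 were no longer called and 77 became called. A further 1, called before, turned its direction. Changes of direction among values that were not called were not counted.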
